A study of Mus musculus with 6 samples.

Results

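The 10 mature microRNAs (miRNAs) described here are best known from neurons and hormone-secreting cells: mmu-miR-7a-5p, mmu-miR-7b-5p, mmu-miR-9-5p, mmu-miR-9-3p, mmu-miR-124-3p, mmu-miR-129-5p, mmu-miR-129-1-3p, mmu-miR-129-2-3p, mmu-miR-138-5p and mmu-miR-375-3p, written below without the prefix for mouse. They were chosen by name, and all 10 were among the 1900 mature names in the count tables. The libraries are of small RNA of the renal cortex, taken from C57BL/6 mice, with 3 mice per group per the series' design text. Mice of the diet-only group ate the HF/HC/HS/BA diet, which is rich in fat and cholesterol and contains bile salt, for 8 weeks, and mice of the other group ate that diet with tofogliflozin for 8 weeks. Tofogliflozin inhibits SGLT2, the transporter that takes up glucose in the proximal tubule. All 6 mice were on the steatohepatitis-inducing diet, so no value here is from a mouse on standard chow. The sources used here give no age, sex or drug dose.

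A miRNA is cut from a hairpin precursor, whose strands give a 5p and a 3p arm. The arm that is loaded into an Argonaute protein pairs with messenger RNAs mainly through its seed, bases 2 to 8, and lowers their translation or stability. miR-124 and miR-9 are classic miRNAs of neurons and neural progenitors, miR-129 and miR-138 are described in neurons and at synapses, and miR-375 and miR-7 are prominent in pancreatic islet and pituitary cells. A cortex sample consists mostly of tubules, with vessels, glomeruli and the nerve fibres that accompany the arteries.

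The mature sequences are shown because the seed decides which miRNAs can share targets, and because near-identical sequences limit what read counts can tell apart. RefSeq (build GRCm38.p6) gave the sequence of 7 of the 10 members, 5′ to 3′, with the seed in capitals.
miR-7a-5p: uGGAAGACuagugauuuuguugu
miR-7b-5p: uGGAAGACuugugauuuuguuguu
miR-9-5p: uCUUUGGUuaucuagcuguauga
miR-9-3p: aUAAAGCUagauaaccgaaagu
miR-129-5p: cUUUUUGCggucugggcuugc
miR-129-2-3p: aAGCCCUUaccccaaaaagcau
miR-138-5p: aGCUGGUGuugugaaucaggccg
These 7 sequences hold 6 different seeds, and among them only miR-7a-5p and miR-7b-5p have the same one, GGAAGAC. No sequence was given for miR-129-1-3p, but its hairpin, Mir129-1, contains AGCCCUU, the seed of miR-129-2-3p. Counted from the 5′ end, miR-7b-5p differs from miR-7a-5p by A10U and carries 1 more base at its 3′ end. Reads of the pair can therefore not be separated with certainty, and every value of miR-7b-5p carries that limit. The sequences are 21 to 24 bases long, so that a read spans a whole miRNA and levels need no scaling by length.

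Several members come from more than 1 hairpin. miR-9-5p and miR-9-3p are encoded by Mir9-1 at chr3:88215598-88215686, Mir9-2 at chr13:83738814-83738885 and Mir9-3 at chr7:79505264-79505353, each on the plus strand of GRCm38 (mm10). In GENCODE M21 these lie in an intron of the long non-coding RNA Gm3764, an exon of C130071C03Rik and an intron of Mir9-3hg. miR-129-5p is encoded by Mir129-1 at chr6:29022619-29022691 on the plus strand and Mir129-2 at chr2:94241364-94241453 on the minus strand, in an exon of Gm3294 and an intron of Mir670hg. miR-138-5p comes from Mir138-1 at chr9:122682876-122682974 and Mir138-2 at chr8:94324311-94324381, both on the plus strand, in exons of the pseudogene Gm47135 and the long non-coding RNA C78859. Mir7b lies at chr17:56242988-56243098 on the plus strand and Mir375 at chr1:74900658-74900721 on the minus strand, neither within another annotated gene.

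The miR-7a hairpins are shown in full, with the 5p and 3p arms in capitals, since their 5p arms are the same and only the 3p arms tell them apart. Mir7-1 lies at chr13:58392779-58392886 on the minus strand, in an intron of Hnrnpk, which encodes a widely expressed RNA-binding protein. Mir7-2 lies at chr7:78888277-78888373 on the plus strand, outside other annotated genes.
Mir7-1: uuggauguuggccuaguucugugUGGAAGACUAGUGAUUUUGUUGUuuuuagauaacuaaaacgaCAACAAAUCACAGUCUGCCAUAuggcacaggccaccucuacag
Mir7-2: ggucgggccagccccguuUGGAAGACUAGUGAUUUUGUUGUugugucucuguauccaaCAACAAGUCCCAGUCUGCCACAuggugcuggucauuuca
From miR-7a-1-3p to miR-7a-2-3p the arms differ by A7G, A10C and U21C, the first of them within the seed.

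Libraries held 6643638 to 22886200 counts after the rows of a mature name were merged, the fewest in tofogliflozin replicate 2. That library also stood apart on the first principal component of the 460 tested miRNAs, which held 52.0% of the variance, with a score of 13.8 against -6.17 to 0.141 in the other 5. Its hepatocyte miRNA miR-122-5p was at 245 CPM (the count scaled to the normalized size of the library) against 40.7 to 78.6 CPM elsewhere. Tubule markers were abundant: the 5 listed miRNAs, miR-192-5p and miR-10a-5p among them, summed to 159897 to 170207 CPM on the diet alone and 147541 to 171556 CPM with tofogliflozin. The sum is mostly miR-10a-5p and miR-192-5p; miR-204-5p, a scarcer one of the 5, was at 275 ± 21.6 and 442 ± 62.3 CPM (SD, n = 3 each) without overlap between the groups (edgeR's quasi-likelihood test, unadjusted p = 0.00168, adjusted p = 0.387), and was singled out after its values were seen. Of the 4 markers listed for neurons and glia, miR-124-3p was at 0 in every library, miR-219a-5p had 12 counts over all libraries, miR-338-3p had a mean of 1.24 CPM, and miR-9-5p was at 271 to 409 CPM. Pancreatic acinar markers miR-216a-5p, miR-216b-5p and miR-217-5p together had at most 0.332 CPM in any library.

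Of the 10 miRNAs, 9 had counts in all 6 libraries and 1, miR-124-3p, had none in any. Their summed share of a library was 0.255% to 0.286% in diet-only mice and 0.189% to 0.394% with tofogliflozin, where the highest share was in replicate 2 and the lowest in replicate 3. Most of this was miR-7a-5p, which made up 69.6% to 84.1% of the members' counts. A mean level placed miR-7a-5p at rank 38 of the 1026 names with a count in any library, miR-9-5p at rank 93, miR-375-3p at rank 120, miR-129-5p at rank 150 and miR-7b-5p at rank 267. The 3 scarcest of those with counts, miR-129-1-3p, miR-138-5p and miR-129-2-3p, ranked 432, 496 and 542.

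**Figure D1:**
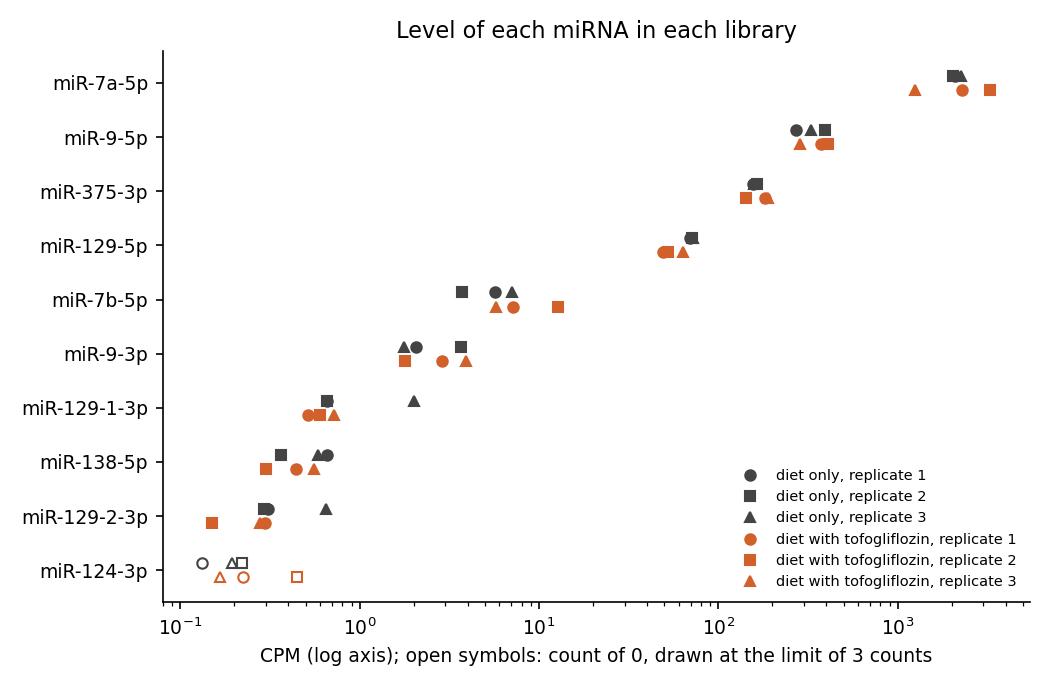
Level of each of the 10 miRNAs in CPM on a log axis, in order of their mean, with 1 symbol per library; grey is diet only and orange is diet with tofogliflozin. miR-7a-5p lies between 1255 and 3285 CPM, and the open symbols of miR-124-3p stand for counts of 0, drawn at the limit that 3 counts set.

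In order of level, miR-7a-5p stood 6.41 times above miR-9-5p, which stood 2.07 times above miR-375-3p, and miR-375-3p stood 2.64 times above miR-129-5p (ratios of mean CPM over 6 libraries). miR-129-5p in turn was 8.93 times above miR-7b-5p. For each of these 4 steps the lowest library of the higher miRNA lay above the highest library of the lower. miR-7b-5p was above miR-9-3p within 6 of 6 libraries, 2.63 times in mean CPM, although its lowest library (3.73 CPM) lay under the highest of miR-9-3p (3.93 CPM). From miR-9-3p to miR-129-1-3p, on to miR-138-5p and on to miR-129-2-3p, ranges over the libraries overlapped at each step and the order held within 5 of 6 libraries. Each of these orders is one of reads in the libraries, which need not be that of molecules in the tissue.

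miR-124-3p, the miRNA most closely tied to neurons, had 0 counts in each of its 3 precursor rows in every library, and so had its other arm, miR-124-5p. A count of 0 allows a level of up to 0.132 to 0.447 CPM in a single library, highest in tofogliflozin replicate 2, and of up to 0.0333 CPM over all 6, taking 3 counts as the limit. miR-9-5p, which shares its neural reputation, was at a mean of 343 ± 57.1 CPM (SD, n = 6 libraries) in the same samples. These limits cover counting error only.

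miR-7a-5p, a miRNA of islet and pituitary cells, was the most abundant member. On the diet alone it was at 2089, 2028 and 2254 CPM in replicates 1, 2 and 3, and with tofogliflozin at 2275, 3285 and 1255 CPM. The diet-only mice lay close together, while the tofogliflozin mice held both the highest and the lowest value of all 6, so that the groups overlapped. Group means were 2124 ± 117 CPM and 2272 ± 1015 CPM (SD, n = 3 each). The log2 fold change, tofogliflozin minus diet only, was 0.10 ± 0.30 (SE), with a 95% interval of -0.59 to 0.79 that leaves a fold from 0.663 to 1.72. By edgeR's quasi-likelihood test the adjusted p was 0.973. Without tofogliflozin replicate 2 the log2 fold change was -0.27, and without tofogliflozin replicate 3 it was 0.42, so the direction rested on single libraries. In bulk tissue, fewer cells of a type and less RNA per cell cannot be told apart.

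Of the 3p arms of the miR-7a hairpins, only that of Mir7-1 had counts. miR-7a-1-3p, from the Hnrnpk intron, had 31, 22 and 18 counts on the diet alone and 11, 5 and 24 with tofogliflozin. miR-7a-2-3p had 0 in all 6 libraries, a limit of 0.0333 CPM over all of them. miR-7b-3p had 2 counts in all, both in tofogliflozin replicate 3. The 5p arm itself is listed under both miR-7a hairpins with nearly the same values, 46744 and 47455 counts in diet-only replicate 1 for example, and so does not show from which it came. Mean levels were 2198 CPM for the 5p arm and 1.17 CPM for miR-7a-1-3p, so the comparison of 3p arms rests on few reads. An arm at 0 also need not mean that its hairpin gave no reads of the other arm. From Mir375, for example, miR-375-3p had 15088 counts over all libraries and miR-375-5p had 0.

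miR-7b-5p has the same seed at a far lower level. It was at 5.68, 3.73 and 7.08 CPM on the diet alone and at 7.17, 12.8 and 5.75 CPM with tofogliflozin. The highest value was again that of tofogliflozin replicate 2, and the groups overlapped. Its log2 fold change was 0.61 ± 0.37 (SE), from -0.24 to 1.46, with an adjusted p of 0.854 by edgeR's quasi-likelihood test. Leaving out tofogliflozin replicate 2, in which miR-122-5p was also high, brought it to 0.23, and the part of that library's makeup in the difference was not tested.

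The ratio of miR-7a-5p to miR-7b-5p counts needs no scaling between libraries. It does carry the limit that reads of the pair cannot be separated with certainty. On the diet alone there were 368, 544 and 318 reads of miR-7a-5p per read of miR-7b-5p, and with tofogliflozin 317, 256 and 218.2. All 3 tofogliflozin mice were below the diet-only mice, by the narrowest margin between diet-only replicate 3 and tofogliflozin replicate 1. As log2 ratios, with 0.5 added to each count, the means were 8.63 ± 0.40 and 8.02 ± 0.27 (SD, n = 3 each), a difference of -0.61. An exact 2-sided permutation test gave p = 0.1, its minimum with 3 against 3 mice, and 0.3 after Benjamini-Hochberg adjustment over the 3 ratios compared here. This difference was -0.39 without diet-only replicate 2 and -0.78 without diet-only replicate 3.

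miR-9-5p, a regulator of neural progenitor cells, was at 271, 392 and 327 CPM on the diet alone and at 373, 409 and 286 CPM with tofogliflozin. Both groups covered nearly the same range. The log2 fold change was 0.11 ± 0.19 (SE), from -0.33 to 0.55, with an adjusted p of 0.930 in edgeR's quasi-likelihood test. Dropping diet-only replicate 2 raised this log2 fold change to 0.29, while dropping tofogliflozin replicate 2 lowered it to 0.00086. The 3 precursor rows of miR-9-5p were the same in each library, so the tables do not show which of the Mir9 hairpins gave the reads.

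From the other strand of the same hairpins, miR-9-3p was at 2.07, 3.66 and 1.75 CPM on the diet alone and at 2.88, 1.79 and 3.93 CPM with tofogliflozin. These levels rest on 12 to 71 counts per library, and the groups overlapped. Its log2 fold change was 0.25 ± 0.40 (SE), from -0.68 to 1.19 (edgeR's quasi-likelihood test, adjusted p = 0.911). It turned to -0.02 without tofogliflozin replicate 3 and was 0.64 without diet-only replicate 2. Reads of the 5p arm outnumbered those of the 3p arm 131, 107 and 186 to 1 on the diet alone and 129.3, 228 and 72.8 to 1 with tofogliflozin. The tofogliflozin mice held both the highest and the lowest arm ratio, and the mean log2 ratio differed by -0.10 (exact permutation p = 0.9, adjusted p = 1.0). Without tofogliflozin replicate 3 that difference was 0.30 and without tofogliflozin replicate 2 it was -0.50.

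miR-129-5p, a miRNA of neurons, was lower in every tofogliflozin mouse than in any diet-only mouse, without passing the test. It stood at 69.1, 71.3 and 72.4 CPM on the diet alone and at 48.9, 52.2 and 63.2 CPM with tofogliflozin. Means were 70.9 ± 1.66 CPM and 54.8 ± 7.50 CPM (SD, n = 3 each). In log2 units the fold change was -0.37 ± 0.16 (SE), and its interval ran from -0.74 to -0.0037. In edgeR's quasi-likelihood test the unadjusted p was 0.0482 and the adjusted p 0.854, and the exact permutation p was 0.1, so that the difference did not pass the threshold. Among all 460 tested miRNAs, groups did not overlap for 12.0%, 5.0% had an unadjusted p under 0.05, and 2.39% had one and were lower with tofogliflozin. miR-129-5p was the 1 tested member of 6 in each of these counts, which at such shares is no result about the members. Leaving out 1 library at a time gave values between -0.46 (tofogliflozin replicate 3 left out) and -0.25 (tofogliflozin replicate 1 left out), and the adjusted p stayed above the threshold in every alternative run.

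The 3p arms of miR-129 are named by hairpin and were near the limit of detection. In the Mir129-1 hairpin lies a stretch nearly the same as miR-129-2-3p. Reads of these arms can therefore not be separated with certainty. miR-129-1-3p had 15, 9 and 31 counts on the diet alone and 7, 4 and 13 with tofogliflozin. miR-129-2-3p had 7, 4 and 10 counts on the diet alone and 4, 1 and 5 with tofogliflozin. As assigned by name, miR-129-1-3p had more counts than miR-129-2-3p in 6 of 6 libraries, and diet-only replicate 3 was highest for both. Neither passed the filter on low counts, so neither has a test across all miRNAs, and exact permutation p-values of log2 CPM were 0.3 and 0.2. Reads of miR-129-5p outnumbered both 3p arms together 71.4, 75.0 and 27.2 to 1 on the diet alone and 60.1, 70.0 and 63.5 to 1 with tofogliflozin. The mean log2 ratio differed by 0.25 (exact permutation p = 1.0, adjusted p = 1.0), and by -0.22 without diet-only replicate 3, the library with the lowest ratio.

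**Figure D2:**
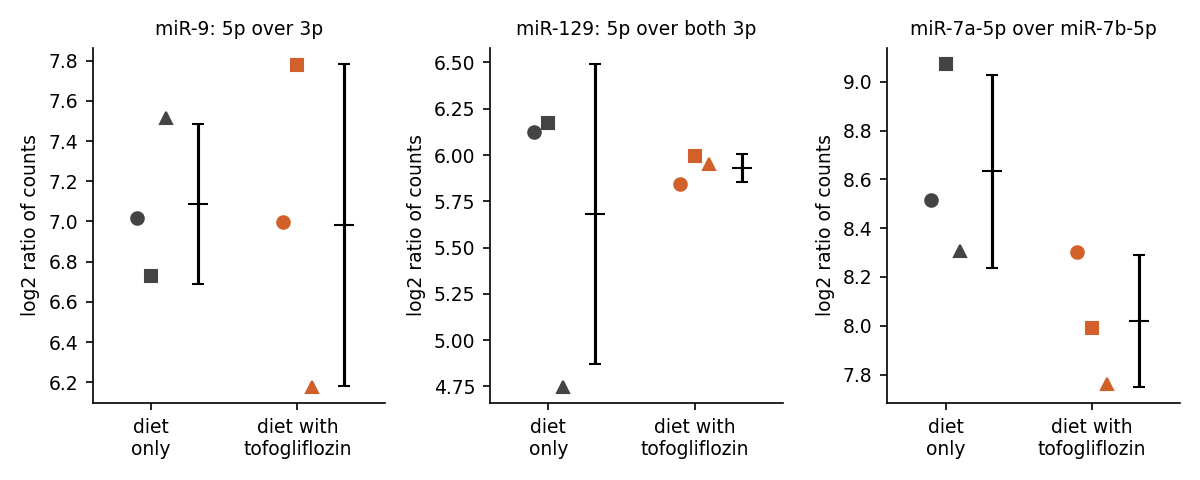
Log2 ratios of counts per library for the arms of miR-9, the arms of miR-129 and miR-7a-5p over miR-7b-5p, with the mean and SD of each group of 3 mice beside the symbols; circles, squares and triangles are replicates 1, 2 and 3. The miR-7a-5p to miR-7b-5p ratio is the one in which the groups do not overlap, with means of 8.63 and 8.02. Reads of this pair cannot be separated with certainty.

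miR-375-3p, the islet miRNA that restrains insulin secretion, had the smallest SD of log2 CPM over the 6 libraries among the 6 tested members. It was at 157, 164 and 159 CPM on the diet alone and at 183, 142 and 188 CPM with tofogliflozin. Tofogliflozin replicate 2 was the lowest library and the other tofogliflozin mice were the highest, so that the groups overlapped. The log2 fold change was 0.10 ± 0.15 (SE), from -0.25 to 0.45, which leaves a fold from 0.842 to 1.36, with an adjusted p of 0.894 by edgeR's quasi-likelihood test. It was 0.22 without tofogliflozin replicate 2 and 0.05 without tofogliflozin replicate 3. No read of its 5p arm, miR-375-5p, was counted in any library.

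miR-138-5p, described at dendritic spines of neurons, had 15, 5 and 9 counts on the diet alone and 6, 2 and 10 with tofogliflozin. At 0.298 to 0.660 CPM it was below the filter on low counts, the groups overlapped, and the exact permutation p of log2 CPM was 0.5. The 3p arm of Mir138-2 had 13 counts in all, 8 of them in diet-only replicate 3, and that of Mir138-1 had 0.

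Across the members, 6 of 10 passed the filter and were tested, 5 with a log2 fold change above 0 and 1 below. Their median was 0.10, beside -0.0052 over all 460 tested miRNAs. In edgeR's quasi-likelihood test 0 of the 6 passed an adjusted p of 0.05, as did 0.0% of all tested miRNAs, while 23 miRNAs, miR-129-5p among them, had an unadjusted p under 0.05. DESeq2 called 2 miRNAs (0.435%) and limma-voom 0 (0.0%), and edgeR with no low-count filter called 10 of 1026 (0.975%), none of them a member. The 4 members without a test were left out for low counts, so the tested 6 are the more abundant ones.

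**Figure D3:**
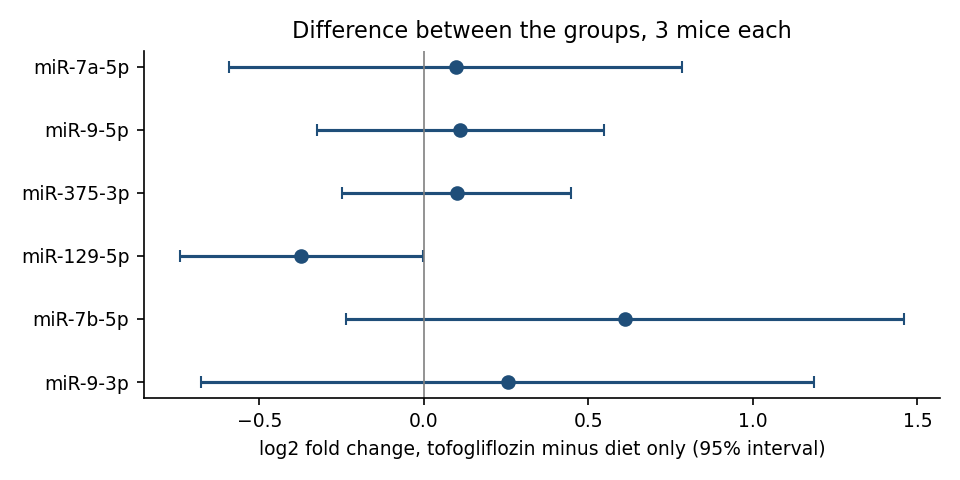
Log2 fold change of the 6 tested members, tofogliflozin minus diet only, with 95% intervals from edgeR's quasi-likelihood fit over 3 mice per group. The interval of miR-129-5p ends at -0.0037, and the other 5 intervals contain 0. These intervals are not adjusted for the 460 miRNAs tested, and the adjusted p of miR-129-5p was 0.854 in edgeR's quasi-likelihood test.

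Levels moved in different ways within the tofogliflozin group. Replicate 2 had the highest level of miR-7a-5p, miR-7b-5p and miR-9-5p of all 6 libraries and the lowest of miR-375-3p, miR-138-5p and miR-129-2-3p. For miR-138-5p and miR-129-2-3p that lowest level rests on 2 counts and 1 count. Replicate 3 had the lowest level of miR-7a-5p and the highest of miR-375-3p and miR-9-3p. The spread of log2 CPM over the 6 libraries ranked miR-7b-5p 86, miR-9-3p 127, miR-7a-5p 152, miR-9-5p 311, miR-129-5p 317 and miR-375-3p 394 of 460, from the widest. Its median was 0.35 over the 6 members and 0.34 over all tested miRNAs, with 3 of the 6 above the latter.

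**Figure D4:**
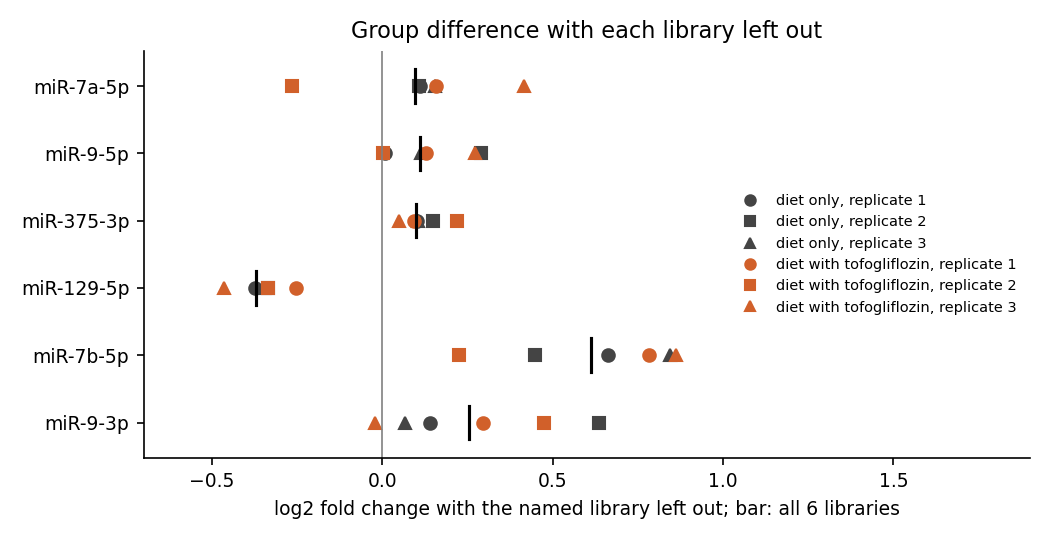
Log2 fold change of the 6 tested members with each library left out in turn (symbols) and with all 6 libraries (bar). miR-7a-5p moves between -0.27 (tofogliflozin replicate 2 left out) and 0.42 (tofogliflozin replicate 3 left out), while miR-129-5p stays between -0.46 and -0.25.

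Among non-members, those whose log2 CPM most resembled miR-7a-5p over the 6 libraries were miR-152-5p (Pearson r = 0.987), miR-212-5p (0.963) and miR-30e-5p (0.963), and 25 of 454 miRNAs had an r above 0.9. Without tofogliflozin replicate 2 these were at 0.974, 0.939 and 0.937. Most like miR-9-5p were miR-99a-3p (0.956), miR-7226-3p (0.917) and miR-146b-5p (0.877), and 2 of 454 miRNAs had an r above 0.9. Without tofogliflozin replicate 2 their r values were 0.995, 0.883 and 0.846. The points share library, depth and scaling, and miR-99a-3p and miR-7226-3p were scarce, at 0.888 and 1.15 CPM.

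Other miRNAs of neural and endocrine tissue were listed to set the members in context. Of 16 further neural miRNAs, 13 had counts and 10 were tested, 4 with a log2 fold change above 0 and 6 below, with a median of -0.09, 0 past the adjusted threshold and 0 at an unadjusted p under 0.05. The most abundant were miR-128-3p, a brain-enriched miRNA, at 2582 ± 236 CPM and 2330 ± 109 CPM (log2 fold change -0.15 ± 0.11, SE), and miR-218-5p, known from motor neurons, at 1276 ± 75.2 CPM and 1209 ± 106 CPM (-0.08 ± 0.12), each as diet only and then tofogliflozin (SD, n = 3 each). miR-137-3p, miR-551b-3p and miR-592-5p were at 0 in every library, as miR-124-3p was. Of the 8 further endocrine and pancreatic miRNAs, 6 had counts and 2 were tested, both below 0, with a median of -0.18 and 0 past the threshold. miR-184-3p was at 11.5 ± 2.82 CPM and 10.1 ± 0.695 CPM and miR-335-5p at 2.63 ± 0.642 CPM and 2.49 ± 1.34 CPM (SD, n = 3 each), while both arms of miR-202, a miRNA of gonads, were at 0. Of the 7 other arms of the members' hairpins, 3 had counts and 1, miR-7a-1-3p, was tested, at a log2 fold change of -0.46 ± 0.39 (SE) with an adjusted p of 0.877 in edgeR's quasi-likelihood test (-0.78 without tofogliflozin replicate 3).

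Other cell types' markers showed these ranges beside the members. Leukocyte miRNAs (3 listed) summed to 66.0 to 78.8 CPM on the diet alone and 58.9 to 70.8 CPM with tofogliflozin, and the endothelial miR-126a-3p ran from 18021 to 21967 and from 15059 to 20679 CPM. Striated muscle miRNAs (4 listed) summed to 97.4 to 126 CPM and 92.2 to 120 CPM, and ciliated epithelium miRNAs (2 listed) to 46.5 to 49.0 CPM and 47.0 to 64.7 CPM. Almost all of the muscle sum was miR-1a-3p, at a mean of 106 CPM, beside 0.859 for miR-133a-3p, 1.41 for miR-206-3p and 0.135 for miR-208a-3p. Likewise, the ciliated epithelium sum was almost all miR-34c-5p, at a mean of 50.2 CPM, beside 0.148 CPM for miR-449a-5p. The part of these cell types in the members' levels was not tested.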

How the data were processed

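For each library the authors deposited raw read counts, as whole numbers in 2033 rows, 1 per mature miRNA and precursor. Per the submitters' processing notes, cutadapt 1.14 and mm10 were used; the aligner, the counter and the release of miRBase: not given in the sources used here. Members and lists were chosen with earlier results of these data known. Per mature name, the largest precursor row of each library was taken (75 names have several rows). CPM values are counts scaled to the library size times its TMM factor. Differences were tested in edgeR 4.0.16 (R 4.3.3; quasi-likelihood F-test, 2-sided, filterByExpr with a minimum count of 10 and total of 15, Benjamini-Hochberg adjustment over 460 miRNAs, threshold 0.05) as tofogliflozin minus diet only over 6 libraries without covariates. SE is the absolute log2 fold change over the square root of F. Permutation tests (20 arrangements) used log2 CPM with a prior count of 2, or log2 ratios with a pseudocount of 0.5. Named were all members, the 2 most abundant of each other list, those of these lists at an unadjusted p under 0.05 or at 0 throughout, and the 3 miRNAs most like each of the 2 most abundant members; cell type markers are given as levels. Alternatives were RLE and upper quartile factors, other filters, DESeq2 1.42.0, limma-voom (limma 3.58.1), a replicate block, summed rows, other pseudocounts and each library left out. The fit was tested on simulated data with larger fold changes than those of the members and with less variation between libraries than in these data. That check does not cover differences of the members' size or the variation found here.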

Additional observations from a re-analysis of the deposited data

How the results depend on the processing

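No member was called under any alternative run. Over all miRNAs the count of calls was 0 except with no low-count filter (10 of 1026) and DESeq2 (2 of 460). Of 82 member values under alternatives, 4 reversed and 0 passed the threshold. miR-7a-5p turned to -0.026 with limma-voom, -0.0057 with the replicate block and -0.27 without tofogliflozin replicate 2, and miR-9-3p to -0.021 without tofogliflozin replicate 3; with a library left out they reached 0.42 and 0.64 at the most. Of 68 values of listed miRNAs 3 reversed, all for miR-335-5p: 0.057 without diet-only replicate 1, 0.15 without tofogliflozin replicate 1 and 0.029 without tofogliflozin replicate 3, with -0.62 as its lowest. With a library left out, the miR-9 arm difference ran from -0.50 to 0.30 (0.11 without diet-only replicate 3). In the same runs the miR-129 arm difference ran from -0.22 to 0.49 and the miR-7a-5p to miR-7b-5p difference from -0.78 to -0.39. Among the other arms only miR-7a-1-3p was tested, and its log2 fold change ran from -0.78 to -0.31. The median of the endocrine and pancreatic list was 0.17 with no low-count filter and -0.43 to 0.016 when single libraries were dropped. The cause of these shifts was not tested. Deviations from the group means correlated at r = 0.0027, -0.14 and -0.17 between mice of the same number, across miRNAs, and 0 libraries correlated best with their own number. With the replicate block 0 miRNAs and 0 members were called, and 10 miRNAs had an unadjusted p under 0.05 against 23 without it. Depth limits miR-129-1-3p, miR-129-2-3p and miR-138-5p, which had 79, 31 and 47 counts over all libraries.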
